A study of Rattus norvegicus with 20 samples.

Results

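Mesenteric arteries of Wistar-Kyoto rats (WKY/Izm) with 1-kidney 1-clip surgery (1K1C) were compared with arteries of untreated rats of the same strain. The 1K1C and untreated WKY arrays were chosen by their sample titles. They are 8 of the 20 arrays of the series, 4 per group. The operation leaves 1 kidney and places 1 clip on its artery, and the labels give 3 weeks for it. Untreated WKY rats had no operation, and a sham-operated group was not analysed here, so removal of a kidney, clipping and surgery itself cannot be told apart. All rats are labelled 6 weeks old, and the labels do not settle whether this is the age at operation or at sampling. The other groups of the series are WKY with 2K1C, in which the second kidney stays in place, and untreated SHR and SHRSP, strains with inherited hypertension. The labels call the arrays of a group biological replicates. Blood pressure was not analysed here.

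Narrowing of a renal artery lowers perfusion of the kidney behind it, and the kidney answers by activating the renin-angiotensin system. The angiotensin II made from angiotensinogen constricts resistance vessels and drives aldosterone release. When no other kidney is present to excrete sodium, salt and water are retained, and 1K1C is known as a form of renovascular hypertension with a large volume component. Mesenteric arteries are a resistance bed with a wall of contractile smooth muscle, an endothelium, a dense sympathetic nerve supply and fat around them. The RNA came from whole artery, so all of these tissues contribute to it. In such samples fewer cells of a type and less RNA per cell cannot be told apart.

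The arrays were single-colour, and the level of a gene is given below as the log2 of its background-subtracted signal minus the log2 of the 75th percentile of signals on that array, control spots left out. A difference is the mean level in 1K1C minus the mean level in untreated WKY, with its standard error. The 75th percentile was 574 to 932 on the 1K1C arrays and 774 to 937 on the untreated arrays, and 68.3% to 70.6% of spots lay well above background. All 8 arrays were on 1 slide, with 1K1C in row 1 and untreated WKY in row 2, so group and slide row cannot be told apart. Markers of the labelled tissue were present on every array: the smooth muscle myosin gene Myh11 had levels of 2.91 to 5.93 in 1K1C and 5.02 to 6.34 in untreated WKY, and the endothelial adhesion gene Pecam1 2.56 to 3.70 in 1K1C and 2.28 to 3.47 in untreated WKY.

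The arrays did not separate cleanly by group. Correlations over the 16424 genes tested ran from 0.954 to 0.990 within 1K1C, from 0.951 to 0.991 within untreated WKY and from 0.922 to 0.991 between the groups. Untreated replicate 4 correlated at 0.991 with 1K1C replicate 4, which lay beside it in the same column of the slide, and at 0.953 to 0.971 with the other untreated arrays. Untreated replicate 1 correlated at 0.951 to 0.953 with its own group. It carried the highest signal of neuronal and brown fat genes of the 8 arrays. The 1K1C replicate 2 had the lowest signal of contractile genes. Where the median of a list moved by over 1.5 times without 1 of these arrays, its value without that array is given too, except for medians within 0.1 of 0.

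**Figure D1:**
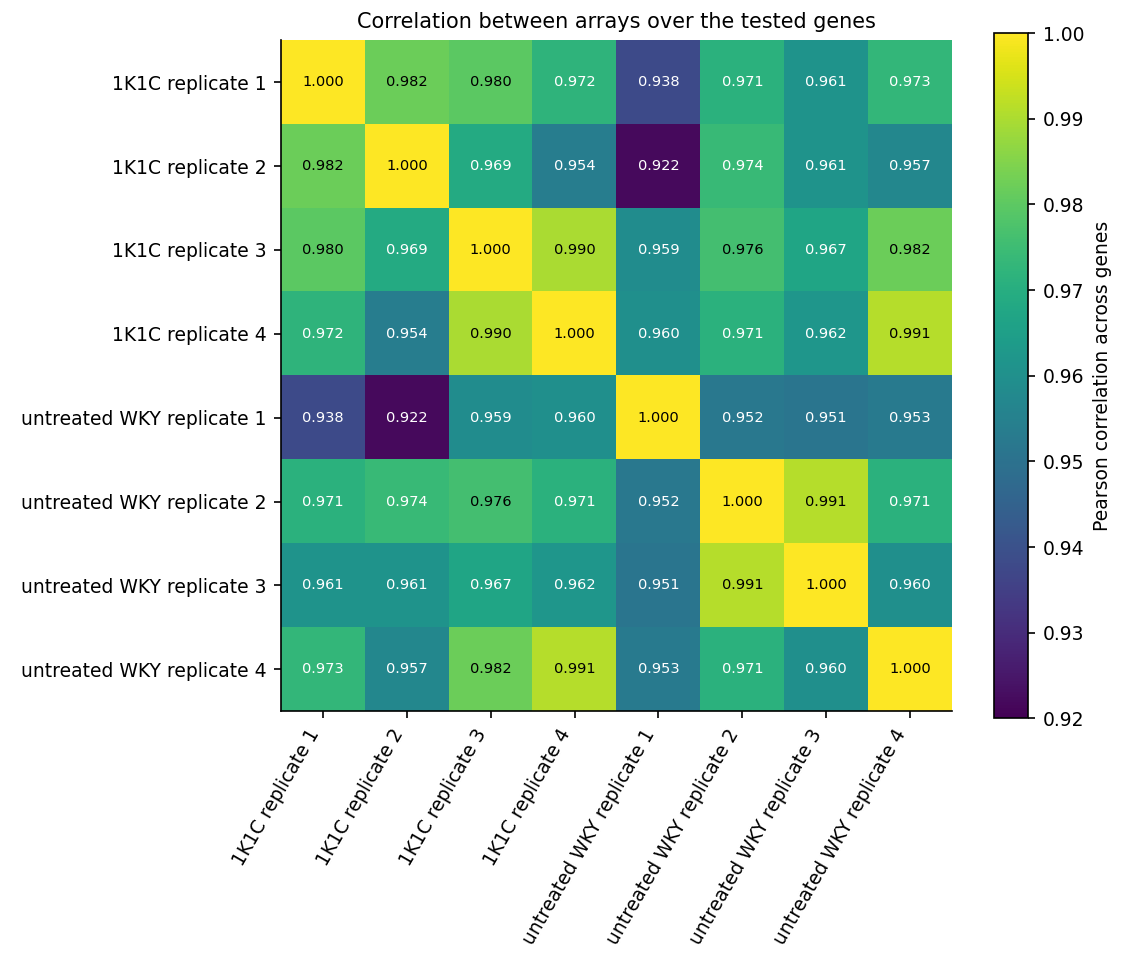
Pearson correlation between arrays over the tested genes, with the 4 1K1C arrays first and the 4 untreated WKY arrays after them on both axes and colour giving the correlation. Untreated replicate 4 sits at 0.991 with 1K1C replicate 4, and the lowest value, 0.922, is between 1K1C replicate 2 and untreated replicate 1.

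No gene differed between 1K1C and untreated WKY arteries at an adjusted p under 0.05 (limma, Benjamini-Hochberg adjustment, 4 arrays per group). The count was 0 of 16424 genes in each direction (0%), and the lowest adjusted p was 0.0663. That fit took its spread from all 20 arrays, and with the 8 arrays fitted alone the lowest adjusted p was 0.714 (limma). At an unadjusted p under 0.05 there were 1493 genes, of which 803 were higher (4.89% of all genes) and 690 lower (4.2%) in 1K1C. That split depended on the scaling: it was 1539 higher and 529 lower with arrays scaled to their medians, 1209 and 645 after quantile normalization, and 142 and 799 without scaling. The median difference over all genes was 0.10, with an interquartile range of -0.08 to 0.26, and it ran from -0.05 without scaling to 0.18 with scaling to the median. Differences of at least 1 on the log2 scale were mostly on the lower side, with 511 genes lower (3.11%) and 77 higher (0.469%) in 1K1C.

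Among the arrays left out in turn, untreated replicate 4 moved the count of called genes most. Without it there were 205 called genes, 186 lower and 19 higher in 1K1C. With each of the other 7 arrays left out in turn the count was 0 to 3. With array weights, which give arrays that stand apart less say, 387 genes were called, 301 lower and 86 higher. Quantile normalization gave 7 called genes and values without scaling gave 2. Untreated replicate 4 had the lowest level of the untreated arrays at all 12 genes named next as lower in 1K1C, and at 3 of the 12 named as higher. These genes were picked from the same values, and the share over all genes was not analysed here.

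**Figure D2:**
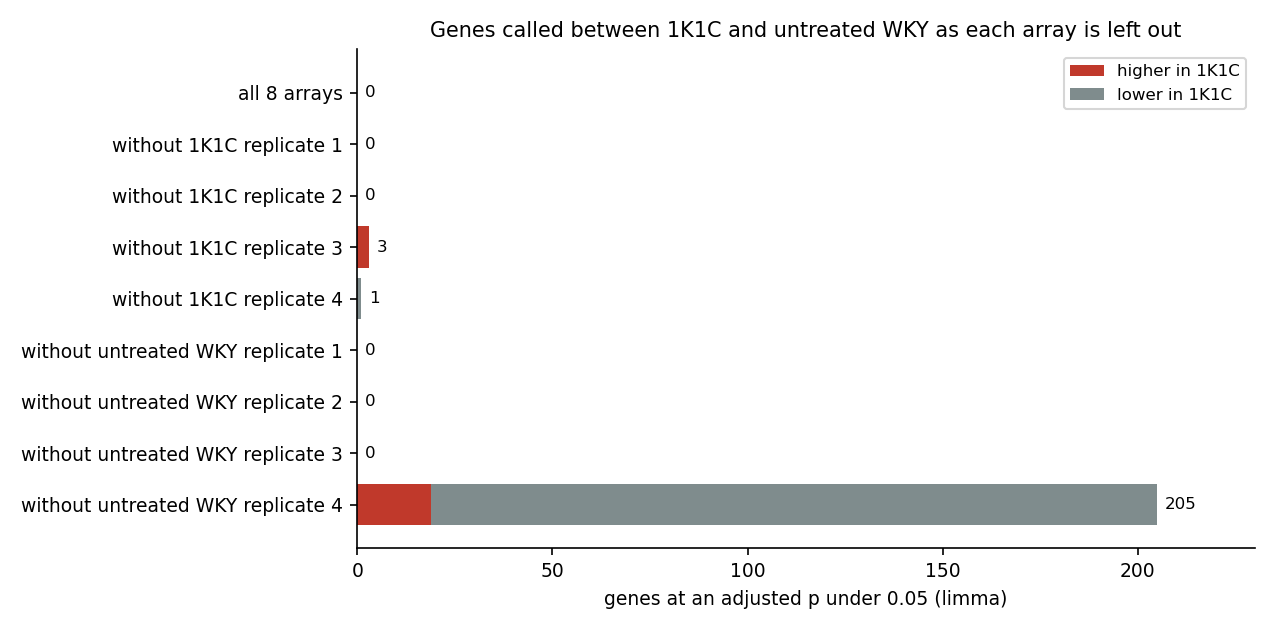
Bars give the number of genes at an adjusted p under 0.05 between 1K1C and untreated WKY with all 8 arrays and with each array left out, split into genes higher and lower in 1K1C. The bar without untreated replicate 4 reaches 205, and the others are at 0 to 3.

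The 12 genes with the smallest p among those whose 4 1K1C arrays all lay below the 4 untreated arrays had differences of -4.79 to -0.72, with adjusted p of 0.0663 to 0.184, so none was called. Over all genes, 251 (1.53%) had 1K1C arrays all below and 374 (2.28%) had them all above. First was Frmd3, which encodes a FERM domain protein and is read by a probe at chr5:91994339-91994398 (rn4). Its levels were -7.40, -7.21, -6.46 and -5.11 in 1K1C, against -2.05, -3.19, -2.10 and -4.56 in untreated WKY. The difference was -3.57 ± 0.54 (limma, adjusted p = 0.0663). The groups did not overlap, and the gap between them was set by replicate 4 of each. The Frmd3 probe was well above background on 1 of the 4 1K1C arrays.

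A4galt, the enzyme that makes the glycolipid globotriaosylceramide, is read at chr7:121252118-121252177. It had levels of -5.27, -5.80, -5.04 and -4.20 in 1K1C, against 1.65, -0.05, 0.84 and -3.60 in untreated WKY. Of the untreated arrays, 3 lay far above 1K1C and replicate 4 lay just above it. The probe was well above background on 2 of the 4 1K1C arrays. The difference was -4.79 ± 0.83 (limma, adjusted p = 0.112), and -5.89 without untreated replicate 4 (adjusted p = 0.000155).

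Pde9a, a phosphodiesterase specific for cGMP, had a smaller difference and a smaller spread. Its levels were -1.82, -1.93, -2.65 and -2.08 in 1K1C, against -0.81, -1.08, -0.63 and -1.60 in untreated WKY. The difference was -1.09 ± 0.19 (limma, adjusted p = 0.112), and the probe at chr20:9899446-9899505 was well above background on all 8 arrays.

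Kcnk2 encodes a stretch-sensitive background potassium channel. Its levels were -4.68, -6.60, -5.22 and -3.56 in 1K1C, against -2.18, -1.62, -0.56 and -3.36 in untreated WKY, a difference of -3.08 ± 0.58 (limma, adjusted p = 0.128), with the probe well above background on 3 of the 4 1K1C arrays. Again replicate 4 of 1K1C and replicate 4 of untreated WKY were close to each other. Ass1, which makes argininosuccinate in the pathway that rebuilds arginine from citrulline, had levels of -3.88, -4.85, -3.94 and -4.41 in 1K1C, against -1.52, -2.02, -1.06 and -3.60 in untreated WKY. All 4 1K1C arrays were low. Its difference was -2.22 ± 0.45 (limma, adjusted p = 0.153).

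Of the other genes at this end of the ranking, 4 are known from nerve endings. Syp encodes synaptophysin of synaptic vesicles, Snph anchors mitochondria in axons, Dnajc6 encodes auxilin, which uncoats clathrin vesicles in neurons, and Caly encodes a neuronal vesicle protein. Syp had levels of -6.89, -6.60, -7.30 and -5.73 in 1K1C, against 0.84, -2.85, -1.69 and -5.32 in untreated WKY. It was not well above background on any 1K1C array. The bound from the dimmest signals that were well above background is at least 12.2-fold lower in 1K1C, between group means. The bound itself was not tested, and the measured levels of Syp had an adjusted p of 0.184 (limma). The differences were -3.39 ± 0.67 for Snph, -3.77 ± 0.81 for Dnajc6 and -4.24 ± 0.96 for Caly. At Snph, replicate 4 of 1K1C and replicate 4 of untreated WKY both stood at -4.61 after rounding, so the groups nearly touched. Of the 4 1K1C arrays, Snph was well above background on 1, Dnajc6 on 2 and Caly on all, so the sizes for Snph and Dnajc6 rest partly on dim signals. The untreated arrays kept 1 order at Syp, Snph, Dnajc6 and Caly, with replicate 1 highest, then replicate 3, replicate 2 and replicate 4. The remaining genes were Sgsm1 (-2.41 ± 0.54), the tetraspanin Tspan8 (-1.39 ± 0.30) and the WD-repeat gene Wdr6 (-0.72 ± 0.16). All 12 were called without untreated replicate 4, where 186 of 16424 genes were called lower. They were picked from the same arrays for a lack of overlap and a small p, so that count is no separate evidence.

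The 12 genes at the other end, with every 1K1C array above every untreated array, had differences of 0.46 to 1.16 and adjusted p of 0.128 to 0.189. Their mean levels were far under the 75th percentile of the arrays, -4.89 to -3.28 in 1K1C and -6.03 to -4.08 in untreated WKY, and 6 of the 12 were well above background on all 4 untreated arrays. Stx19, a syntaxin of membrane fusion, had levels of -3.14, -3.10, -3.71 and -3.19 in 1K1C, against -4.19, -3.80, -4.17 and -4.16 in untreated WKY. The difference was 0.80 ± 0.15 (limma, adjusted p = 0.128), and 1K1C replicate 3 came within 0.1 of untreated replicate 2.

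Prrt4, a gene for a proline-rich membrane protein, had levels of -4.48, -4.46, -5.20 and -5.31 in 1K1C, against -6.41, -5.84, -5.48 and -6.37 in untreated WKY. The difference was 1.16 ± 0.22 (limma, adjusted p = 0.128). The probe was well above background on 1 untreated array. Gucy2e, a membrane guanylate cyclase known from the retina, had a difference of 0.93 ± 0.19 and the protocadherin gene Pcdh20 one of 0.75 ± 0.19. Cyb561d1 stood at 0.88 ± 0.18 by its brighter probe and -0.46 by its other probe, so its probes disagree. The rest were Dhx16 at 0.97 ± 0.25, Slc7a3l1 at 0.92 ± 0.23, Or2av9 at 0.84 ± 0.21, Taar8c at 0.77 ± 0.19, Nkx2-6 at 0.67 ± 0.17, Defb36 at 0.56 ± 0.13 and Plekha8 at 0.46 ± 0.11. Of the untreated arrays, Gucy2e, Cyb561d1 and Dhx16 were well above background on 1, and Or2av9 and Slc7a3l1 on 2. The sizes for these genes and for Prrt4 rest partly on dim signals. Without untreated replicate 4, 5 of the 12 were called, and 19 of 16424 genes were called higher in that setting. The 12 were picked from the same arrays for a lack of overlap and a small p, so that count is no separate evidence.

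**Figure D3:**
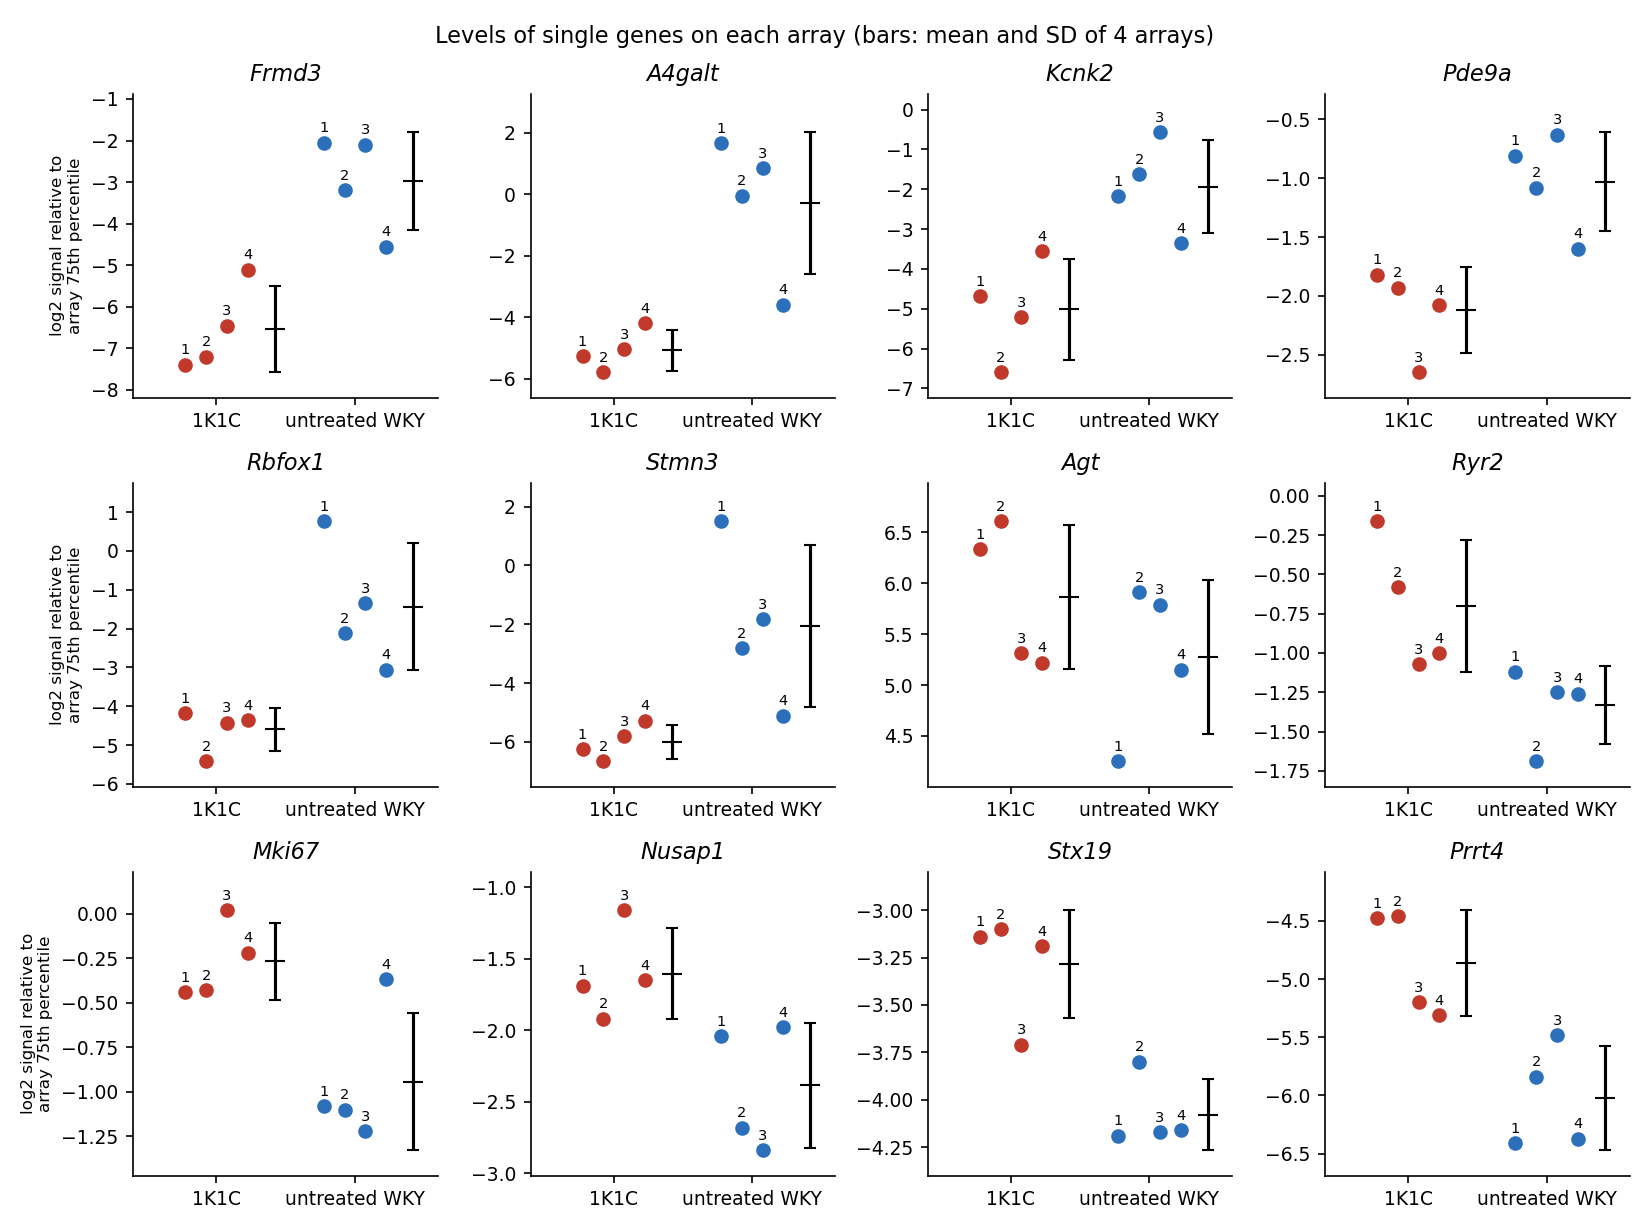
Log2 level of 12 genes on each array, 1K1C on the left and untreated WKY on the right of each panel, with numbers for the replicates and bars for the mean and SD of 4 arrays. At Frmd3, A4galt, Kcnk2, Rbfox1 and Stmn3 untreated replicate 4 lies nearest to the 1K1C arrays, and the axes differ between panels.

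Pan-neuronal genes had the largest median difference of the 43 lists, in either direction. Of 20 pan-neuronal markers 11 were measured, and all 11 were lower in 1K1C, with a median difference of -3.15, against 34.6% of all genes lower. All 11 had an unadjusted p under 0.05 in that direction (4.2% of all genes), 5 had 1K1C arrays all below untreated arrays (1.53% of all genes), and none was called. Members dim on 1K1C arrays, named below, passed the filter on dim probes only through other groups. The counts of lower members can thus be partly set by the filter. The neuronal splicing factor gene Rbfox1 had levels of -4.18, -5.42, -4.42 and -4.36 in 1K1C, against 0.77, -2.12, -1.35 and -3.06 in untreated WKY, a difference of -3.15 ± 0.73 (limma, adjusted p = 0.189). The 1K1C arrays were close to each other and the untreated arrays spread over nearly 4 log2 units.

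Prph, which encodes peripherin of the neuronal cytoskeleton, had levels of -1.15, -1.52, -1.68 and -1.12 in 1K1C, against 4.85, 1.57, 2.52 and -0.80 in untreated WKY. The neurofilament gene Nefm had levels of -6.48, -7.65, -5.21 and -5.60 in 1K1C, against 2.64, -2.15, -1.04 and -4.90 in untreated WKY. Stmn3 and Stmn2, which encode microtubule regulators of growing axons, differed by -3.94 ± 0.97 and -2.36 ± 0.78. Chgb, a granule protein, differed by -5.23 ± 1.44, and the deubiquitinase Uchl1 by -3.37 ± 0.99. The other members, Celf4, Scg3, Gap43 and Tubb3, lay between -2.92 and -1.99. On the 4 1K1C arrays, Nefm, Stmn3 and Chgb were well above background on 1, Celf4 on 2 and Scg3 on 3, so their sizes rest partly on dim signals.

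Summed over the list, the pan-neuronal signal was 3.49, 2.51, 4.33 and 3.63 times the array's 75th percentile in 1K1C, against 195, 16.4, 29.2 and 4.39 times in untreated WKY. The untreated sum thus varied far more than the 1K1C sum, and untreated replicate 4 was within 0.1 of the highest 1K1C array. Without untreated replicate 1 the list's median was -2.35, with 9 of 11 at an unadjusted p under 0.05. Without untreated replicate 4 it was -3.69, with 7 of 11 called lower, against 186 of all 16424 genes called lower in that setting.

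The difference at noradrenergic markers was smaller without untreated replicate 1. Tyrosine hydroxylase (Th), the rate-limiting enzyme of noradrenaline synthesis, had levels of -0.79, -0.82, -1.55 and -1.39 in 1K1C, against 5.18, -1.24, -1.44 and -1.39 in untreated WKY. The co-transmitter gene Npy had levels of -0.62, 0.24, 1.29 and -0.15 in 1K1C, against 7.26, 0.43, 1.17 and 0.22 in untreated WKY. Untreated replicate 1 was high at both, and the other untreated arrays lay among or beside the 1K1C arrays. Of the 13 noradrenergic genes 7 were measured, all 7 lower in 1K1C (34.6% of all genes), with a median of -1.72. An unadjusted p under 0.05 was found at 2, Ddc and Hand2 (4.2% of all genes). Without untreated replicate 1 the median was -0.40 and 0 had an unadjusted p under 0.05, with 2 of 7 higher. The summed signal was 2.18 to 4.04 in 1K1C and 2.81 to 303 in untreated WKY. Of the Schwann cell and myelin genes 6 of 13 were higher and 7 lower, with a median of -0.08, and with single arrays left out the median ran from -0.54 to 0.26. Their summed signal was 47.6 to 97.5 in 1K1C and 32.3 to 102 in untreated WKY. The nerve growth factor receptor gene Ngfr of that list had a difference of -1.82 ± 0.55 (limma, adjusted p = 0.269).

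**Figure D4:**
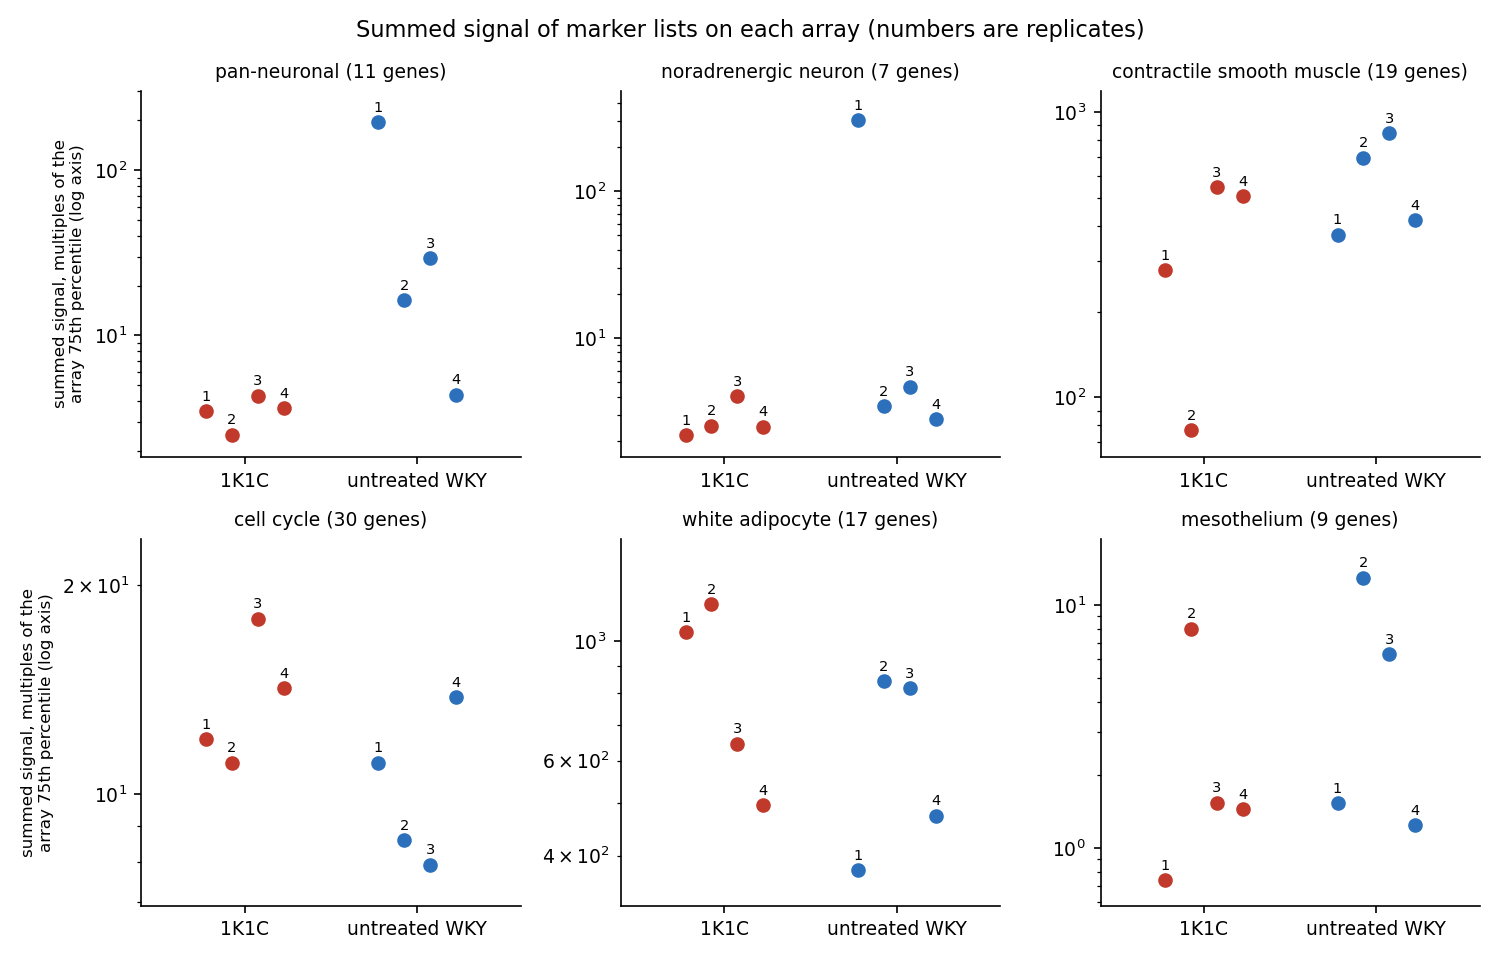
Summed linear signal of 6 marker lists on each array, in multiples of the array's 75th percentile on log axes, 1K1C on the left and untreated WKY on the right of each panel, with numbers for the replicates. The pan-neuronal sum is 2.51 to 4.33 in 1K1C and 4.39 to 195 in untreated WKY, and the contractile sum of 1K1C replicate 2, 76.6, lies apart from the other arrays.

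Contractile smooth muscle genes were mostly lower in 1K1C, less so without 1K1C replicate 2. Of 19 measured members 18 were lower (34.6% of all genes), with a median of -0.81. An unadjusted p under 0.05 was found at 4, Mylk, Smtn, Des and Actg2, all lower (4.2% of all genes). With the 8 arrays fitted alone it was found at 0. With array weights it was found at 9 lower members and 1 higher member, and 2 were called lower, against 301 of all 16424 genes. Myosin light chain kinase (Mylk), which starts contraction by phosphorylating myosin, had levels of 4.18, 3.06, 4.84 and 4.83 in 1K1C, against 4.25, 5.99, 6.21 and 4.83 in untreated WKY. The difference was -1.09 ± 0.47 (limma, adjusted p = 0.493), and the groups overlapped. Untreated replicates 2 and 3 were high and 1K1C replicate 2 was low.

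Smooth muscle actin (Acta2) had levels of 3.04, 0.73, 3.68 and 3.76 in 1K1C, against 3.58, 2.25, 2.89 and 3.25 in untreated WKY. Its difference was -0.19 ± 0.61, and 0.50 without 1K1C replicate 2. Myh11 differed by -0.93 ± 0.57, the smoothelin gene Smtn by -1.29 ± 0.55, and the desmin gene Des by -1.56 ± 0.68. The summed contractile signal was 280, 76.6, 546 and 508 in 1K1C, against 373, 693, 847 and 418 in untreated WKY. Without 1K1C replicate 2 the median of contractile smooth muscle genes was -0.18, with 11 of 19 lower and 0 at an unadjusted p under 0.05. Without 1K1C replicate 4 it was -1.29, with all 19 lower and 8 at an unadjusted p under 0.05. The low array, 1K1C replicate 2, also had a high white adipocyte sum, 1170, against 496 to 1040 on the other 1K1C arrays. The part of tissue composition in the contractile values was not tested.

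Genes of calcium and potassium handling, which set the tone of smooth muscle, had no called member. With array weights, 2 calcium genes and 2 potassium channel genes were called lower, against 301 of all 16424 genes. Of 26 calcium genes 21 were lower in 1K1C (34.6% of all genes), with a median of -0.41. Without 1K1C replicate 2 the median was -0.29, with 18 lower. The ryanodine receptor gene Ryr2, an exception, had levels of -0.16, -0.58, -1.07 and -1.0 in 1K1C, against -1.12, -1.69, -1.25 and -1.26 in untreated WKY. All 4 1K1C arrays were higher, by 0.63 ± 0.21 (limma, adjusted p = 0.305). The calcium pump gene Atp2b1 had a difference of -1.59 ± 0.70, with 1K1C replicate 1 at -2.97 against 1.52 to 1.96 on the other 1K1C arrays, and its other probe gave -0.47.

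Among 17 potassium channel genes 10 were lower (34.6% of all genes), with a median of -0.20, and the sign turned without 1K1C replicate 2 (0.13). The median was -0.07, -0.08 and -0.11 without 1K1C replicate 3, 1K1C replicate 4 and untreated replicate 3. The 4 with an unadjusted p under 0.05 were all lower (4.2% of all genes). They were Kcnk2, the inward rectifier genes Kcnj12 (-1.68 ± 0.55) and Kcnj8 (-1.04 ± 0.35), and the voltage-gated channel gene Kcna2 (-0.99 ± 0.42). Kcnj12 and Kcna2 were well above background on 2 and 3 of the 4 1K1C arrays. Kcnj8, the pore of the vascular ATP-sensitive channel, had levels of 1.42, 1.51, 1.92 and 1.82 in 1K1C, against 1.56, 3.48, 3.82 and 1.97 in untreated WKY. Only untreated replicates 2 and 3 stood above the 1K1C arrays by more than 1. Kcnmb1, the beta subunit of the calcium-activated channel, differed by -0.65 ± 0.73.

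Components of the renin-angiotensin system had no called member in the artery. Of 16 measured members 12 were higher, a share near the 65.4% of all genes, with a median of 0.37. An unadjusted p under 0.05 was found at 2 higher members and 1 lower member. The median was 0.21, 0.23 and 0.24 without 1K1C replicate 1, untreated replicate 1 and untreated replicate 3. Angiotensinogen (Agt), the precursor of all angiotensins, had levels of 6.33, 6.61, 5.31 and 5.22 in 1K1C, against 4.25, 5.91, 5.79 and 5.15 in untreated WKY, a difference of 0.59 ± 0.43 (limma, adjusted p = 0.670). The 1K1C replicates 1 and 2 were the highest of the 8 arrays at Agt, and the other 1K1C arrays lay within the untreated range. Replicates 1 and 2 of 1K1C also had the highest white adipocyte sums, 1040 and 1170, against 645 and 496 on the other 1K1C arrays and 376 to 843 on the untreated arrays, and the part of fat in the Agt values was not tested.

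Aminopeptidase A (Enpep), which removes the first residue of angiotensin II, differed by 1.24 ± 0.52 (limma, adjusted p = 0.480). Angiotensin-converting enzyme (Ace) differed by 0.32 ± 0.30. The receptor genes Agtr1a and Agtr1b differed by -0.18 ± 0.24 and 0.42 ± 0.55, and the receptor-associated protein gene Agtrap by -0.03 ± 0.15. The prorenin receptor gene Atp6ap2 stood at -0.50 ± 0.22. The signs of Agtr1a, Agtr1b and Agtrap turned when single arrays were left out, and that of Agtrap also with scaling to the median.

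Of 16 measured genes of mineralocorticoid action and sodium transport 9 were higher and 7 lower, with a median of 0.05. An unadjusted p under 0.05 was found at 5, all lower in 1K1C (4.2% of all genes). With the 8 arrays fitted alone it was found at 2, both lower. With array weights 3 members were called lower, against 301 of all 16424 genes. The sodium pump's beta subunit gene Atp1b1, at -1.91 ± 0.67, was highest on untreated replicate 1, at 4.34. The sodium-potassium-chloride cotransporter gene Slc12a2 had levels of -1.06, -1.40, -1.25 and -0.75 in 1K1C, against -0.82, -0.33, 0.30 and -0.37 in untreated WKY, a difference of -0.81 ± 0.23 (limma, adjusted p = 0.239). The mineralocorticoid receptor gene Nr3c2 differed by -0.02 ± 0.29 and the aldosterone-induced kinase gene Sgk1 by 0.44 ± 0.26.

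Genes of vasodilator and constrictor pathways had no called member. With array weights, 2 of 24 genes for other vasoactive receptors and regulators of G-protein signalling were called lower. Among 16 nitric oxide, cGMP and natriuretic peptide genes, 9 were higher and 7 lower, with a median of 0.03. Ddah1, which degrades the nitric oxide synthase inhibitor asymmetric dimethylarginine, had levels of 1.33, -0.35, 1.17 and 1.21 in 1K1C, against 2.97, 2.05, 2.24 and 1.42 in untreated WKY. The difference was -1.32 ± 0.43 (limma, adjusted p = 0.292), and its other probe gave -0.74. The 1K1C arrays lay below the untreated ones, replicate 2 lowest. The natriuretic peptide receptor gene Npr1 differed by 0.42 ± 0.19, the clearance receptor gene Npr3 by 0.06 ± 0.52 and the endothelial synthase gene Nos3 by 0.37 ± 0.33. Endothelin-1 (Edn1) differed by 0.34 ± 0.32 and its receptor genes Ednra and Ednrb by -0.13 ± 0.41 and -0.15 ± 0.27. Of 11 adrenergic receptor genes and their partners 9 were higher (65.4% of all genes), with a median of 0.23 and differences of -0.76 to 0.66. The median of adrenergic receptors was 0.10 without 1K1C replicate 1 and 0.09 without untreated replicate 1. Rgs4, a brake on G-protein signalling, had levels of 1.14, 0.81, 1.30 and 1.29 in 1K1C, against 3.19, 2.21, 2.52 and 2.06 in untreated WKY. The groups were apart by over 0.7 at Rgs4, and the difference was -1.36 ± 0.38 (limma, adjusted p = 0.217). Rgs2 and Rgs5 differed by 0.49 ± 0.27 and -0.93 ± 0.48.

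Cell cycle genes were higher in 1K1C, with no called member. Of 30 measured genes 28 were higher (65.4% of all genes), with a median of 0.55, and 11 had an unadjusted p under 0.05 in that direction (4.89% of all genes). In 5 of the 30 the 1K1C arrays all lay above the untreated arrays (2.28% of all genes). Mki67, a marker of proliferating cells, had levels of -0.44, -0.43, 0.02 and -0.22 in 1K1C, against -1.08, -1.10, -1.22 and -0.37 in untreated WKY. The difference was 0.67 ± 0.23 (limma, adjusted p = 0.341), and only untreated replicate 4 reached the 1K1C range. Nusap1, a spindle protein, had levels of -1.69, -1.92, -1.16 and -1.65 in 1K1C, against -2.04, -2.68, -2.84 and -1.98 in untreated WKY, without overlap, a difference of 0.78 ± 0.28 (limma, adjusted p = 0.369). The replication helicase gene Mcm2 differed by 0.54 ± 0.20, the mitotic kinase genes Plk1, Bub1 and Cdk1 by 0.55 ± 0.21, 0.47 ± 0.18 and 0.67 ± 0.29, and the anaphase activator gene Cdc20 by 0.36 ± 0.14.

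The members below 0 were Kif2c (-0.81 ± 0.39), highest on untreated replicate 1, and Ccnd1 (-0.22 ± 0.23). The summed cell cycle signal was 12, 11.1, 17.9 and 14.2 in 1K1C, against 11.1, 8.59, 7.92 and 13.8 in untreated WKY. The number at an unadjusted p under 0.05 was 2 without untreated replicate 3, 3 without 1K1C replicate 3 and 16 without untreated replicate 4. With array weights that number was 24, with a median of 0.78. In that setting 2 members were called higher, against 86 of all 16424 genes. Without scaling the number at an unadjusted p under 0.05 was 0, with 28 of 30 still higher and a median of 0.39.

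Many genes of the mitotic programme carry the CCAAT box bound by NF-Y and the TTTGAA element of the cell cycle repressor complex ahead of their start sites. The 250 bases before the RefSeq start of 3 of these genes are shown because they hold both elements and the genes were higher together. Capitals mark CCAAT and TTTGAA on either strand (ATTGG and TTCAAA on the other). In Mki67 a TTTGAA and an ATTGG share a base.
Mki67, chr1:199952594-199952843 (GRCr8, minus strand): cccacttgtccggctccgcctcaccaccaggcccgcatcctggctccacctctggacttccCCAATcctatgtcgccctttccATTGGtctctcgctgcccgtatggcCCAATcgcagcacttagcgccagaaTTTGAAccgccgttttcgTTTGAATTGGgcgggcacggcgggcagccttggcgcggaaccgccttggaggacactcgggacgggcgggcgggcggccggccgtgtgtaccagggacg
Cdc20, chr5:137255800-137256049 (GRCr8, minus strand): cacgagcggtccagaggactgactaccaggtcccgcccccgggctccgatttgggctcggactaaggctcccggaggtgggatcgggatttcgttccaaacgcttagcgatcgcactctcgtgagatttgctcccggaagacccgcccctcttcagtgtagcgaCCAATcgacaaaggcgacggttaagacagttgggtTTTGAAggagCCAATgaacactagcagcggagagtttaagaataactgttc
Cdk1, chr20:19265043-19265292 (GRCr8, plus strand): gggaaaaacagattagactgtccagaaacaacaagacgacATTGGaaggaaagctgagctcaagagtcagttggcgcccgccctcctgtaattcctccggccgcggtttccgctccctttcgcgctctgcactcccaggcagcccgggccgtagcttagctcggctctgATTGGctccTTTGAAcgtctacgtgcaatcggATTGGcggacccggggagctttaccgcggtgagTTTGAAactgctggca

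Of the 30 cell cycle genes 24 had a promoter entry in the RefSeq table. CCAAT was in 18 of these 24 windows (75%), against 34.3% of 27457 windows of the same length, TTTGAA in 8 (33.3%), against 16%, and both in 7 (29.2%), against 5.8%. A match of letters is a description and not a measured site.

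Matrix genes encode the collagens and elastic fibres of the artery wall. Of 18 collagen genes 15 were higher in 1K1C (65.4% of all genes), with a median of 0.32, and 0 had an unadjusted p under 0.05. The median of collagens was 0.20 without untreated replicate 1 and also without untreated replicate 3. Col3a1 had levels of 6.88, 6.28, 6.91 and 6.93 in 1K1C, against 6.63, 6.19, 5.47 and 6.69 in untreated WKY, a difference of 0.50 ± 0.29 (limma, adjusted p = 0.626). Col1a1 differed by 0.52 ± 0.43. The groups overlapped at both, with 1K1C replicate 2 the lowest of its group.

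Of 17 elastic fibre genes 15 were higher (65.4% of all genes), with a median of 0.37. The microfibril genes Mfap5 (0.53 ± 0.20) and Mfap2 (0.58 ± 0.26) had an unadjusted p under 0.05 in that direction (4.89% of all genes). Elastin (Eln) had levels of 4.83, 2.25, 6.48 and 6.49 in 1K1C, against 5.84, 2.80, 2.70 and 4.81 in untreated WKY. The spread within each group covered more than 3 log2 units, and the difference of 0.98 ± 0.85 was within it. Of 26 matricellular and matrix protease genes 20 were higher (65.4% of all genes), with a median of 0.24. In 2 of the 26 the 1K1C arrays all lay above the untreated arrays (2.28% of all genes). Their median was 0.39, 0.08 and 0.15 without 1K1C replicates 2, 3 and 4. It was 0.09 and 0.38 without untreated replicates 3 and 4. Sparc, a collagen-binding matricellular protein, had levels of 7.52, 7.6, 7.77 and 7.69 in 1K1C, against 7.45, 7.18, 6.91 and 7.12 in untreated WKY. All 1K1C arrays were higher, by 0.48 ± 0.17 (limma, adjusted p = 0.368). The gelatinase gene Mmp2 also had no overlap (0.45 ± 0.20), and periostin (Postn) differed by 0.75 ± 0.32. Tenascin-C (Tnc) ran the other way, at -2.0 ± 0.75, with untreated replicates 2 and 3 at -0.68 and -0.18 and all other arrays at or below -2.45. Osteopontin (Spp1) ranged from -5.86 to 1.45 within 1K1C.

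**Figure D5:**
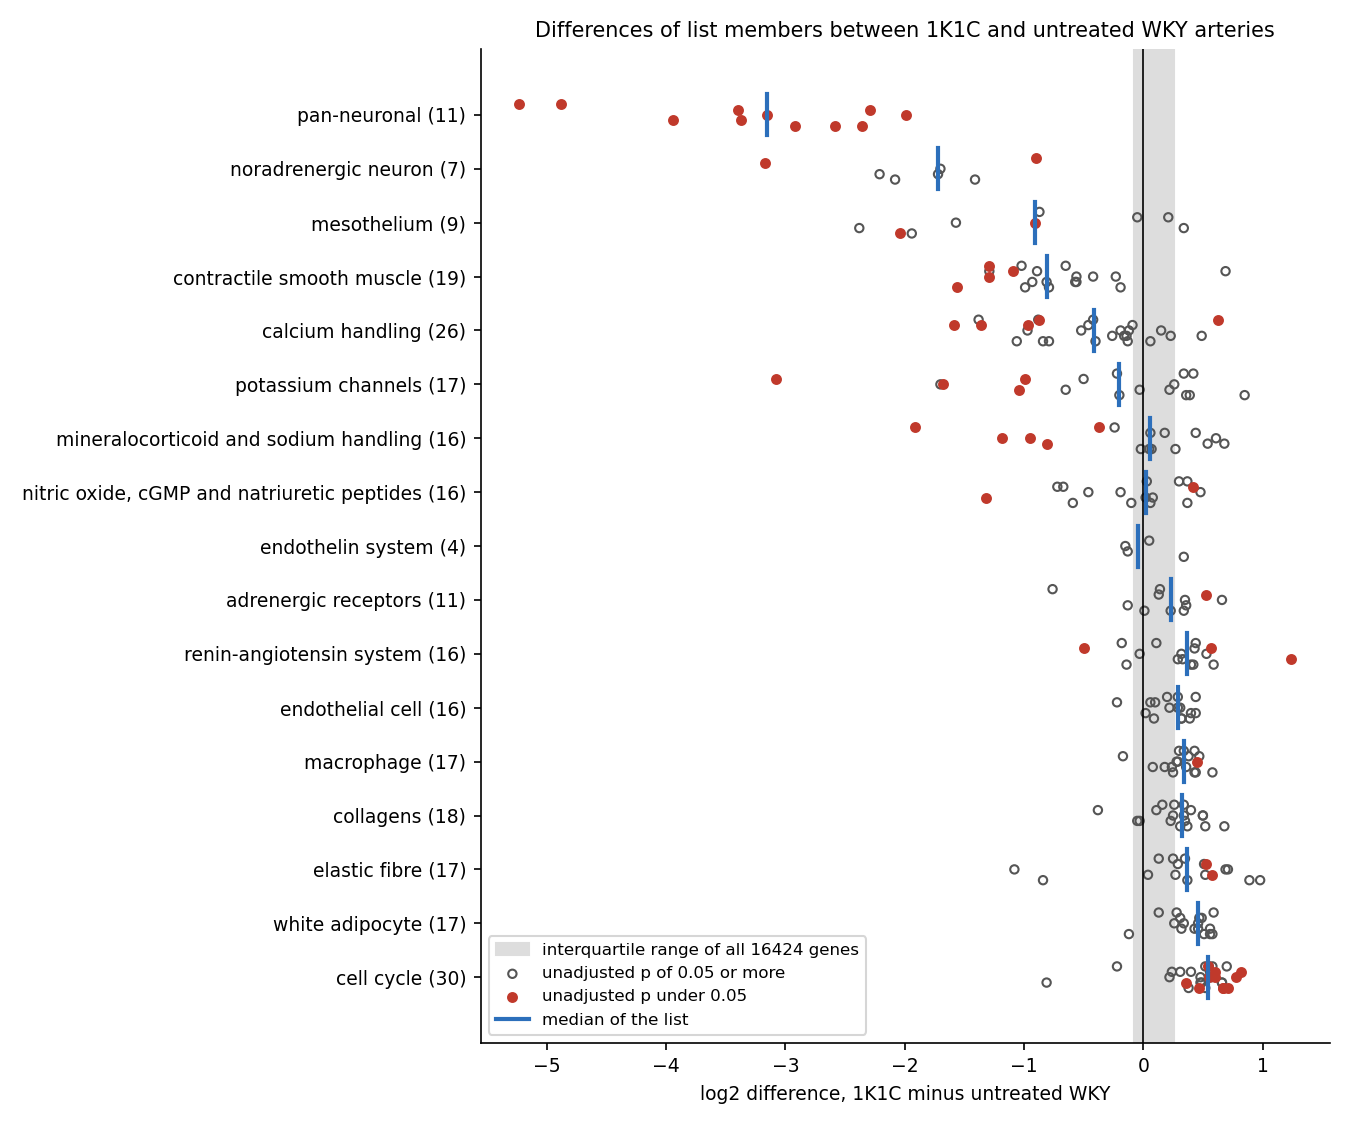
Log2 difference of each measured member of 17 gene lists, 1K1C minus untreated WKY, with filled points for an unadjusted p under 0.05, a vertical stroke for the list's median and a grey band for the interquartile range of all 16424 genes. Pan-neuronal genes reach -5.23, cell cycle genes lie mostly to the right of the band, and no gene shown was called.

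Lists for the other cells of the sample had no called member either. Their counts stand beside 65.4% of all genes higher and 34.6% lower in 1K1C. White adipocyte genes were higher in 16 of 17 members (median 0.46, 0 at an unadjusted p under 0.05). Their sums were 1040, 1170, 645 and 496 in 1K1C, against 376, 843, 819 and 474 in untreated WKY. The white adipocyte median was 0.28 without 1K1C replicate 1, 0.23 without 1K1C replicate 2 and 0.18 without untreated replicate 1, and with array weights it was 0.04, with 10 of 17 higher.

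Macrophage genes were higher in 16 of 17 (median 0.34), with sums of 52.3 to 116 in 1K1C and 52.1 to 75.6 in untreated WKY and with Itgam, an integrin of myeloid cells, at 0.45 ± 0.18. The macrophage median was 0.09 without 1K1C replicate 2, with 13 of 17 higher, and 0.15 without untreated replicate 1. It was 0.55 without 1K1C replicate 4 and 0.09 with array weights. Endothelial genes were higher in 15 of 16 (median 0.29, 0 at an unadjusted p under 0.05). The endothelial cell median was 0.15 without 1K1C replicate 1, 0.19 without untreated replicate 1, 0.16 without untreated replicate 3 and 0.53 without untreated replicate 4.

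Mesothelial genes were lower in 7 of 9 (median -0.91), with sums of 0.736 to 8.0 in 1K1C and 1.24 to 13 in untreated WKY. The median of mesothelium genes was -0.57 without 1K1C replicate 1 and -1.45 without untreated replicate 4. Erythroid genes were even (4 higher, 5 lower, median -0.01), and with single arrays left out the median ran from -0.21 to 0.24. Sums of exocrine pancreas and intestine genes ran from 2.84 to 12.5 in 1K1C and from 0.825 to 39.4 in untreated WKY.

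Clock genes, which drive daily rhythms, had members on both sides, and 2 untreated arrays stood apart at them. Nr1d1, a repressor of the clock loop, had levels of -3.59, -4.00, -3.72 and -2.99 in 1K1C, against -3.09, -1.44, -1.01 and -3.70 in untreated WKY. Dbp, a clock output factor, had levels of 0.93, 1.18, 1.12 and 1.39 in 1K1C, against 1.45, 2.83, 3.50 and 0.73 in untreated WKY. Untreated replicates 2 and 3 stood above all other arrays at both. The differences were -1.26 ± 0.44 for Nr1d1 and -0.97 ± 0.42 for Dbp. Nfil3 and Cry1 were on the other side, at 0.83 ± 0.33 and 0.60 ± 0.26. Over the list 9 of 15 were higher and 6 lower. The hour of sampling was not analysed here.

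The oxygen sensor gene Egln3 had levels of -1.56, -1.63, -1.71 and -1.19 in 1K1C, against -0.36, 0.73, 1.14 and -1.88 in untreated WKY. Its difference was -1.43 ± 0.44 (limma, adjusted p = 0.269), and -2.03 without untreated replicate 4, which alone lay below the 1K1C arrays (adjusted p = 0.00202). The muscle creatine kinase gene Ckm differed by -3.01 ± 0.96 and was well above background on 2 of 4 1K1C and 3 of 4 untreated arrays.

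A comparison of 1K1C with 2K1C asks whether the second kidney matters for the artery. It called 0 of 16424 genes in each direction (0%, limma), with 3536 at an unadjusted p under 0.05. The groups were on different slides, so slide and operation cannot be told apart here. At the genes above, Frmd3 had a mean level of -6.54 ± 1.04 in 1K1C and -4.97 ± 0.73 in 2K1C, against -2.97 ± 1.18 in untreated WKY (SD, n = 4 each). A4galt had -5.08 ± 0.67 in 1K1C and -2.85 ± 1.1 in 2K1C, against -0.29 ± 2.31 in untreated WKY. The values of 1K1C and of 2K1C are set against the same untreated arrays here.

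Stx19 had a mean of -3.28 ± 0.29 in 1K1C and -3.90 ± 0.16 in 2K1C (SD, n = 4 each), a difference of 0.61 ± 0.15 (limma, adjusted p = 0.0731). Agt had 5.87 ± 0.70 in 1K1C and 4.65 ± 0.33 in 2K1C (adjusted p = 0.120 by limma). The white adipocyte sum was 496 to 1170 in 1K1C and 211 to 399 in 2K1C, so those groups did not overlap in it.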

How the data were processed

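Total RNA of whole mesenteric artery was labelled with Cy3 and hybridised to single-colour Agilent rat arrays, 1 sample per array. Per the file headers and the submitters' processing notes, the authors extracted each spot's intensity with Agilent Feature Extraction 10.7.3.1; the deposited processed intensity is background-subtracted and linear. The deposited value table held the same intensity, equal at every spot (largest relative difference 0), with no scaling between arrays and medians of 60.9 to 109 on these arrays.

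Each array's log2 intensities were centred on the log2 of its 75th percentile. The 4259 control spots were not used, outlier spots (357 to 684 on an array) were set to missing, and 0 spots were saturated. Spots of a probe were averaged (30367 probes), probes that passed Agilent's well-above-background flag throughout at least 1 of the 5 groups were kept (18899), and the brightest probe per gene name was tested (16424 genes). Of the probes, 18355 (60.44%) matched a RefSeq accession, 2935 of them with an updated symbol, and 12012 kept the file's name. Probe positions are those of the array design (rn4). A bound written "at least" replaces each dim array's signal by the dimmest one flagged well above background there, unless the probe itself was brighter, before means of log2 values are compared.

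All 20 arrays were fitted in limma 3.58.1 (lmFit, then eBayes; R 4.3.3) with 1 mean per group, which left 15 residual degrees of freedom. Tests were two-sided, and p-values were adjusted by Benjamini-Hochberg over all genes, at a threshold of 0.05. The fit was tested on simulated data. The number of arrays limits the precision. The labels call the arrays of a group biological replicates without naming the animals, so p-values measure the spread between these arrays. The groups, the 43 gene lists and the tests were chosen with earlier results of these data known. Named genes were, per direction, 12 called genes by size, with places left over given to uncalled genes without overlap in order of p and bright enough in the higher group on all 4 of its arrays; the 2 members of each list with the smallest p; and 23 genes fixed by name. Further list members, such as Prph, Nefm, Dbp, Postn and Plk1, were named after their values were seen. Promoter sequence came from RefSeq (GRCr8). Alternatives were other normalizations, filters, probe rules and fits, array weights, the replicate block, slide as a random block, and each array left out. A few members are not reported here.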

Additional observations from a re-analysis of the deposited data

Results flagged for a closer look

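Among 256 sets of 4 arrays (128 named genes in each group), 14 held 1 array far from the others by Dixon's criterion. That share is near the 1 in 20 that chance gives, so the flags are listed as values only. Of these, 5 concerned 1K1C replicate 2: Col3a1 at 6.28, Col1a1 at 5.05, Skil at -3.58 and Ddah1 at -0.35 were its group's lowest, and Calr at 2.54 its highest. In 1K1C replicate 1, Cx3cr1 at 0.95 and Nkx2-6 at -3.80 were high. Stx19 was low in 1K1C replicate 3, at -3.71, and high in untreated replicate 2, at -3.80. Ednrb was high in 1K1C replicate 4, at -0.55. Untreated replicate 1 stood apart at Th (5.18), Npy (7.26) and Agtrap (-0.34), and untreated replicate 4 at Mki67 (-0.37).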

How the results depend on the processing

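The count of 0 called genes was also 0 with normexp and quantile normalization, scaling to the median, no filter on dim probes (26243 genes), probes well above background on all 8 arrays (14857 genes), the mean of all probes, outlier spots kept, the 8 arrays fitted alone (1107 at an unadjusted p under 0.05), and eBayes with trend and robust. It was 7 (6 higher, 1 lower in 1K1C) with quantile normalization, 2 (0 higher, 2 lower) without scaling and 387 (86 higher, 301 lower) with array weights. With each array left out it ran from 0 to 205 (0 to 19 higher, 0 to 186 lower), with 910 to 2522 genes at an unadjusted p under 0.05. The cause of these changes was not tested. Slide as a random block gave the same counts as no block, since the group means already encode the slides.

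Same-numbered 1K1C and untreated arrays correlated at -0.12, 0.57, -0.19 and 0.30 in their deviations. Replicates 2 and 4 correlated best with their own number, and replicates 1 and 3 did not. Same-numbered arrays also lay in the same slide column, so number and column cannot be told apart. The main fit took no pairing from the numbers. With the replicate block the count was 0 over all groups (1513 at an unadjusted p under 0.05) and 0 over the 8 arrays alone (1358).

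Of the named genes' values, 2687 kept their direction and side of the threshold, 70 passed it and 37 turned sign, all of the last uncalled. Without scaling Rac1 was at -0.08, Klf1 at -0.02, Hbb at -0.05 and Npr3 at -0.09. Hbb was at -0.06 with quantile normalization, -0.11 with normexp and -0.07 with array weights. Nr3c2 was at 0.04, 0.12 and 0.12 in the same settings and at 0.06 with scaling to the median, where Agtrap was at 0.05. With array weights Xbp1 was at -0.02, Ednra at 0.18, Npr3 at -0.56 and Acta2 at 0.24. With single arrays left out the ranges were -0.33 to 0.04 for Ednrb, -0.03 to 0.29 for Hbb, -0.26 to 1.67 for Cela3b, -0.33 to 0.01 for Agtr1a, -0.03 to 1.00 for Agtr1b, -0.19 to 0.04 for Agtrap, -0.18 to 0.14 for Nr3c2, -0.38 to 0.20 for Ednra, -0.43 to 0.40 for Npr3, -0.51 to 0.50 for Acta2, -0.45 to 1.98 for Spp1, -1.19 to 0.21 for Kcnmb1 and -1.99 to 0.22 for Th.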
